A study of Mus musculus with 27 samples.

Results

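The cluster of miR-302 and miR-367 comprises 5 microRNA hairpins that lie side by side on mouse chromosome 3. Its 10 mature microRNAs were taken by name from tables of 2035 microRNA loci, and all 10 were present at 1 locus each. They span 563 bases of the plus strand, chr3:127248156-127248718 (mm9), in the order miR-302b, miR-302c, miR-302a, miR-302d and miR-367. Between 53 and 73 bases separate the 3p arm of one hairpin from the 5p arm of the next. In the RefSeq annotation of GRCm38.p6, the noncoding RNA gene Gm51018 on the plus strand and the protein-coding gene Larp7 on the minus strand both span all 5 hairpins.

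All samples were mouse embryonic stem (ES) cells, strain cj7, grown in serum with leukemia inhibitory factor. Wild-type cells stood against 3 mutants, Eed-/-, Ezh2-/- and Jarid2-/-. The complex PRC2 methylates histone H3 at lysine 27, with Ezh2 as its enzyme and Eed as a further core subunit, and Jarid2 is a cofactor that helps to bring it to chromatin. In the labels Jarid2-/- has 1 small RNA sample and the other genotypes have 2 each, but the tables hold 1 column per genotype. The sources used here do not say whether a column pools samples or whether a mutant is 1 clone, and the wild-type column is assigned by the name of the parental line alone. No difference between genotypes therefore has a replicate check or a test. Ranges in parentheses are exact 95% intervals for the error of counting alone, and PCR copies of a molecule are counted as if they were separate molecules.

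A microRNA hairpin is cut by Drosha and Dicer into a short duplex of a 5p and a 3p strand, one of which is usually kept by Argonaute while the other is degraded. The kept strand recognises target messenger RNAs mainly through its seed, bases 2 to 8 from the 5′ end. MiR-302 microRNAs share their seed with part of the miR-290 cluster, the leading microRNA group of mouse ES cells, and both groups restrain inhibitors of the G1 to S transition of the cell cycle. The gene of the cluster is a target of Oct4 and Sox2 and is known for higher activity in primed than in naive pluripotent cells. MiR-367 comes from the same primary transcript but carries the seed of the miR-25 and miR-92 family.

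The 3p arms are shown first because they hold nearly all of the counts. The sequences are those of RefSeq (GRCm38.p6), in which 9 of the 10 members were matched. Capitals mark the seed.

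miR-302b-3p: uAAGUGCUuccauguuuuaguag
miR-302c-3p: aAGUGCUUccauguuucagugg
miR-302d-3p: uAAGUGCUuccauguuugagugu
miR-367-3p: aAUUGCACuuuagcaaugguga

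With positions counted from 1 at the 5′ end of miR-302b-3p, the 3 miR-302 sequences shown are identical through position 17. MiR-302d-3p differs from miR-302b-3p by U18G, A22G and G23U. MiR-302c-3p is annotated to start at position 2 of miR-302b-3p and differs by U18C and A22G, so the same letters fall 1 place earlier and bases 2 to 8 read AGUGCUU instead of AAGUGCU. How reads that match several of these sequences were assigned is not given in the sources used here, so the split among the miR-302 3p arms is uncertain to that extent.

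The 5p arms, shown because their levels differed most between genotypes, are less alike. MiR-302b-5p, miR-302c-5p and miR-302d-5p share the seed CUUUAAC, while miR-302a-5p has CUUAAAC.

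miR-302b-5p: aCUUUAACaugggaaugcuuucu
miR-302c-5p: gCUUUAACaugggguuaccugc
miR-302a-5p: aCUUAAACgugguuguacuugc
miR-302d-5p: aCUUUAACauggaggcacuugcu
miR-367-5p: aCUGUUGCuaacaugcaacuc

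The 66-base miR-302d hairpin of RefSeq shows how the arms lie on the precursor, with the 5p and then the 3p arm in capitals.

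Mir302d: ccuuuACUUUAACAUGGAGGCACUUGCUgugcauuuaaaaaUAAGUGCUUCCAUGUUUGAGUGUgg

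The start of Gm51018, the plus-strand gene that spans the hairpins, is shown because the cluster is thought to be transcribed as 1 unit. The window of 300 bases, chr3:127544839-127545138 on the plus strand of GRCm38.p6, runs from 250 bases before to 50 after the start. It holds a TATA box match, TATAAA in capitals, that begins 30 bases before the start.

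Gm51018: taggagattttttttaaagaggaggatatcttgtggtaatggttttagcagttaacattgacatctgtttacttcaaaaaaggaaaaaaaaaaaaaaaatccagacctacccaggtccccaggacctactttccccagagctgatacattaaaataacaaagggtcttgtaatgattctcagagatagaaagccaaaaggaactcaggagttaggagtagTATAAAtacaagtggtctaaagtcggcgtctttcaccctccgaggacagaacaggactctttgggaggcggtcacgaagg

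Searched on both strands, TATAAA occurred in 13.6% of 32851 RefSeq promoter windows of this length. The CCAAT box (CCAAT, in 37.4% of windows) and the octamer bound by Oct4 (ATGCAAAT, in 1.74%) had no match in this window.

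The microRNA counts of a column totalled 23793733 (wild-type), 42293019 (Eed-/-), 32074712 (Ezh2-/-) or 8485806 (Jarid2-/-). Levels are given as counts per 1000000 of these totals (CPM), and since a read covers a whole mature microRNA, no correction for length was made. Of the 6 listed ES cell markers of the miR-290 cluster, 5 were found by name. They summed to between 243946 CPM (Jarid2-/-) and 314943 CPM (wild-type). Over all 9 loci of its 3p arms that cluster had 341980 CPM in wild-type and was highest in Ezh2-/-, at 398496 CPM. The order of the genotypes thus depended on the members summed. Summed markers of other cell types ranged from 567 to 1620 CPM for fibroblasts or mesenchymal cells (6 of 6 found, mostly miR-145a-5p, highest in wild-type), from 2866 to 9332 for blood cells (5 of 5, mostly miR-150-5p), from 183 to 1811 for neural cells (4 of 4, lowest in Jarid2-/-), from 366 to 1360 for endoderm (4 of 4, highest in Ezh2-/-) and from 2.83 to 26.0 for muscle (3 of 3, highest in Eed-/-). In the fibroblast list miR-199a-3p and miR-199b-3p had nearly equal levels in every column (155 and 156 CPM in wild-type). The same reads may thus be counted in both. Single markers did not move together. The low neural sum of Jarid2-/- lay mostly in miR-124-3p, with 1014 CPM in wild-type and 15.4 in Jarid2-/-. In the same order miR-128-3p had 208 and 161 CPM, miR-9-5p 2.44 and 2.36, and miR-9-3p 6.81 and 4.71. In Eed-/- miR-9-5p and miR-9-3p were higher, at 37.9 and 33.6 CPM, while miR-124-3p (992) and miR-128-3p (178) were below wild-type. The muscle sum of Eed-/- lay mostly in miR-206-3p, at 15.9 CPM against 0.757 in wild-type. The blood cell microRNAs miR-142-3p and miR-142-5p had 102 and 212 CPM in wild-type but 2.06 and 2.44 in Eed-/-, while miR-223-3p of myeloid cells was at or below 0.168 CPM in all 4 columns. In the endoderm list miR-192-5p ran from 316 CPM (Eed-/-) to 1257 CPM (Ezh2-/-), while miR-122-5p of liver was at or below 0.615 CPM, and at 0 in Jarid2-/-. Their part in the results was not tested, and fewer cells of a type cannot be told apart from less RNA per cell.

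The cluster as a whole was more abundant in Eed-/- and Jarid2-/- cells than in wild-type, and lower in Ezh2-/- cells when scaled to total microRNA counts. Its summed level was 7743 CPM in wild-type cells, 15574 CPM in Eed-/- cells, 5222 CPM in Ezh2-/- and 12785 CPM in Jarid2-/-. It was thus a minor group next to the miR-290 cluster, at 0.774% (0.771 to 0.778%) of microRNA counts in the wild-type column, 1.56% (1.55 to 1.56%) in Eed-/- cells, 0.522% (0.520 to 0.525%) in Ezh2-/- and 1.28% (1.27 to 1.29%) in Jarid2-/-. Against wild-type the sum was 2.01-fold higher (2.00 to 2.02) in Eed-/- cells, 1.65-fold higher (1.64 to 1.66) in Jarid2-/-, but 1.48-fold lower (1.47 to 1.49) in Ezh2-/-. Between mutants, it was 2.98-fold higher (2.97 to 3.00) in Eed-/- than in Ezh2-/-, 1.22-fold higher (1.21 to 1.23) in Eed-/- than in Jarid2-/-. Ezh2-/- was 2.45-fold (2.43 to 2.47) below Jarid2-/-.

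The scaling decides the Ezh2-/- value but not the sign of the other ratios to wild-type. The log2 ratio of the cluster sum in Ezh2-/- was -0.57 with total counts, -0.051 with the median-ratio size factors of DESeq2, -0.12 with the denominators of the deposited values in reads per 1000000 (RPM) and 0.16 with the TMM factors of edgeR. The median log2 ratio of all tested loci, which was -0.44 in Ezh2-/- with total counts, moved to 0.09 with TMM. That median was taken over ratios with 1 CPM added, while the cluster sum had nothing added. Measured so, the Ezh2-/- cluster sum stood between -0.13 and 0.07 from the median over the 5 scalings run. In Eed-/- the median of all loci ran from -0.06 to 0.52 over the scalings, and the cluster sum stood 0.84 to 1.20 above it. In Jarid2-/- the median ran from -0.27 to 0.23, and the cluster sum stood 0.84 to 0.99 above it. A scaling shifts all ratios with nothing added alike, so the spread of these distances comes from the added 1 CPM.

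**Figure D1:**
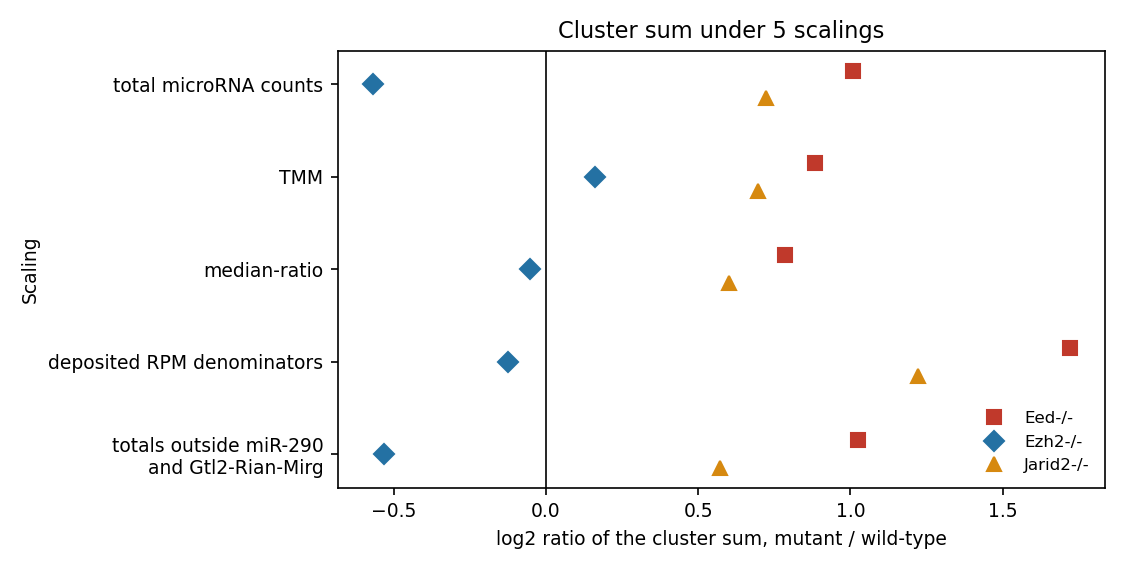
Log2 ratio of the summed counts of the cluster, mutant against wild-type (x axis), under 5 scalings (y axis), 1 point per mutant. The Eed-/- and Jarid2-/- points lie above 0 under all 5, and the Ezh2-/- points run from -0.57 with total counts to 0.16 with TMM.

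Of the 10 members, all passed the filter of at least 10 counts in 1 of the 2 columns in each comparison. The call needed a log2 ratio of 1 or more in size after 1 CPM was added to both levels. In Eed-/-, 5 members were called higher and 0 lower, where 17.5% of 1096 tested loci were called higher and 15% lower. Their median log2 ratio was 1.04, and that of all tested loci 0.08. The Eed-/- count was 4 with TMM, where miR-302d-3p (0.95) was no longer called, 3 with the median-ratio factors, where miR-302c-5p (0.94) was not called either, and 9 with the RPM denominators. Of the 1096 tested loci, 159, 131 and 369 were called higher under these 3 scalings, against 192 with total counts. In Jarid2-/-, 6 members were called higher and 0 lower, where 16.3% of 950 tested loci were called higher and 22.8% lower, with medians of 1.20 for the members and -0.17 for all loci. The Jarid2-/- count was 9 with the RPM denominators, where 259 of the 950 tested loci were called higher, against 155 with total counts. In Ezh2-/-, 0 members were called higher and 1 lower, where 4.9% of 1000 tested loci were called higher and 24.5% lower, with medians of -0.48 and -0.44, so the members stood close to the background there. With TMM 6 of the 10 members changed sign in Ezh2-/-, and 4 did with the median-ratio factors. All 3 comparisons share the wild-type column.

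**Figure D2:**
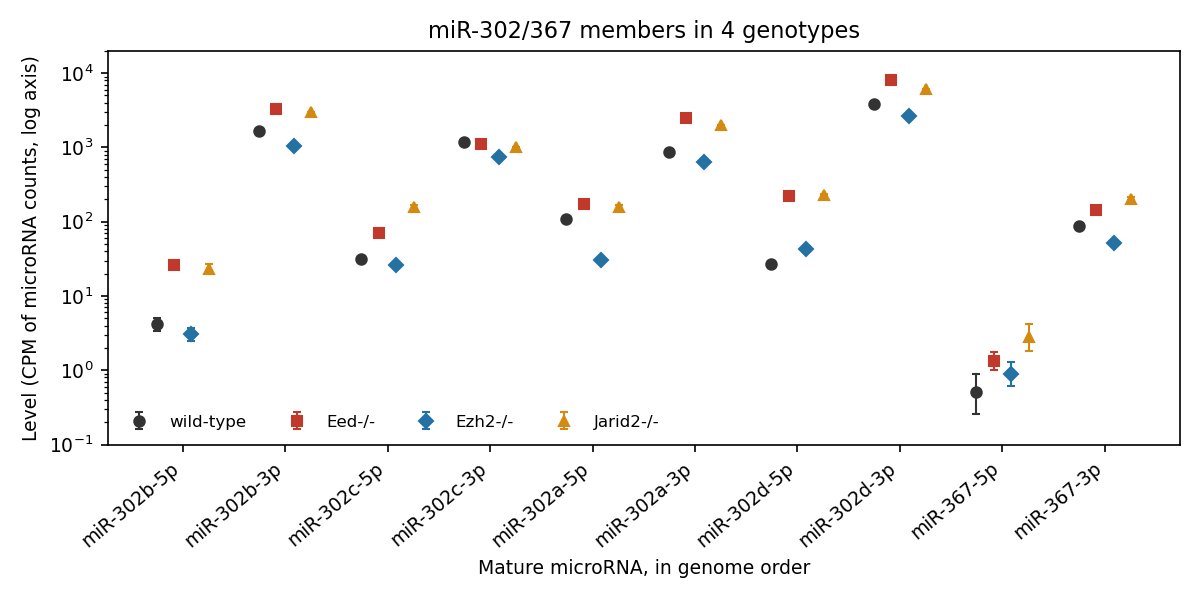
Level of each of the 10 mature microRNAs (x axis, in genome order) in CPM on a log axis (y axis), 1 point per genotype with exact 95% Poisson intervals. The miR-302 3p arms lie between 629 and 7988 CPM, and miR-367-5p at the bottom lies between 0.504 and 2.83 CPM.

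Among the 3p arms, mmu-miR-302d-3p (chr3:127248583-127248605) was the most abundant member in every column. It had 90031 counts in the wild-type column, 337825 in Eed-/- cells, 85154 in Ezh2-/- and 51328 in Jarid2-/-, or 3784, 7988, 2655 and 6049 CPM. It ranked between 20th (Eed-/-) and 40th (Ezh2-/-) of all loci and made up 48.9% (48.6 to 49.1%) of cluster counts in the wild-type column, 51.3% in Eed-/- cells, 50.8% in Ezh2-/- and 47.3% in Jarid2-/-. The level in Eed-/- was 2.11-fold higher (2.10 to 2.13) than in wild-type and that in Jarid2-/- 1.60-fold higher (1.58 to 1.62). In Ezh2-/- it was 1.43-fold lower (1.41 to 1.44), but its log2 ratio was 0.22 with TMM and 0.006 with the median-ratio factors.

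The next in order, mmu-miR-302b-3p (chr3:127248193-127248215), had levels of 1671 CPM in wild-type cells, 3330 in Eed-/- cells, 1033.5 in Ezh2-/- and 2966 in Jarid2-/-. Its ratios followed those of miR-302d-3p, at 1.99-fold higher (1.97 to 2.02) in Eed-/- cells, 1.78-fold higher (1.75 to 1.80) in Jarid2-/-, but 1.62-fold lower (1.59 to 1.64) in Ezh2-/-. With a log2 ratio of 0.99 in Eed-/- it fell just short of the threshold. Its log2 ratio in Ezh2-/- was 0.04 with TMM.

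The 3p arm with the largest ratio in Eed-/- and Jarid2-/- was mmu-miR-302a-3p (chr3:127248457-127248479). It had 857 CPM in wild-type cells, 2492 in Eed-/- cells, 629 in Ezh2-/- and 1995 in Jarid2-/-. This was 2.91-fold higher (2.87 to 2.95) in Eed-/- cells, 2.33-fold higher (2.28 to 2.38) in Jarid2-/-, but 1.36-fold lower (1.34 to 1.39) in Ezh2-/-. The Jarid2-/- interval overlapped that of miR-367-3p, at 2.28-fold (2.14 to 2.43), so their order there is not resolved. The log2 ratio of miR-302a-3p in Ezh2-/- was 0.28 with TMM and 0.07 with the median-ratio factors. The share of miR-302a-3p in the cluster was 11.1% (10.9 to 11.2%) in wild-type and 12.0% (11.9 to 12.2%) in Ezh2-/-. It was 16.0% (15.9 to 16.1%) in Eed-/- and 15.6% (15.4 to 15.8%) in Jarid2-/-.

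A different course was seen for mmu-miR-302c-3p (chr3:127248324-127248345), which did not share the higher level in Eed-/- and Jarid2-/-. It had 27873 counts in the wild-type column, 47656 in Eed-/- cells, 24070 in Ezh2-/- and 8520 in Jarid2-/-, or 1171, 1127, 750 and 1004 CPM. The level was 1.04-fold lower (1.02 to 1.06) in Eed-/- cells, 1.17-fold lower (1.14 to 1.20) in Jarid2-/-, and as much as 1.56-fold lower (1.53 to 1.59) in Ezh2-/-. With the RPM denominators its log2 ratio was above 0 in Eed-/- (0.66) and Jarid2-/- (0.27), and with TMM in Ezh2-/- (0.09). Within the cluster, which no scaling affects, its share was 15.1% (15.0 to 15.3%) in wild-type and 14.4% (14.2 to 14.5%) in Ezh2-/-, against 7.24% (7.17 to 7.30%) in Eed-/- and 7.85% (7.69 to 8.02%) in Jarid2-/-. MiR-302c-3p therefore ranked above miR-302a-3p among the members in wild-type and Ezh2-/-, and below it in Eed-/- and Jarid2-/-. The counting intervals of these neighbours did not overlap in any column.

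The last hairpin gave mmu-miR-367-3p (chr3:127248697-127248718), far less abundant than the miR-302 3p arms. It had 88.7 CPM (84.9 to 92.5) in wild-type cells, 143 (139 to 146) in Eed-/- cells, 51.2 (48.7 to 53.7) in Ezh2-/- and 202 (193 to 212) in Jarid2-/-. Unlike the cluster sum it was highest in Jarid2-/-, at 2.28-fold (2.14 to 2.43) the wild-type level, with 1.61-fold (1.53 to 1.69) in Eed-/- and a 1.73-fold lower level (1.62 to 1.85) in Ezh2-/-. With TMM the log2 ratio of miR-367-3p in Ezh2-/- was -0.06. The miR-367 hairpin as a whole was 1.43-fold lower (1.35 to 1.50) in Eed-/- than in Jarid2-/-, whereas the miR-302d hairpin was 1.31-fold higher (1.30 to 1.32).

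**Figure D3:**
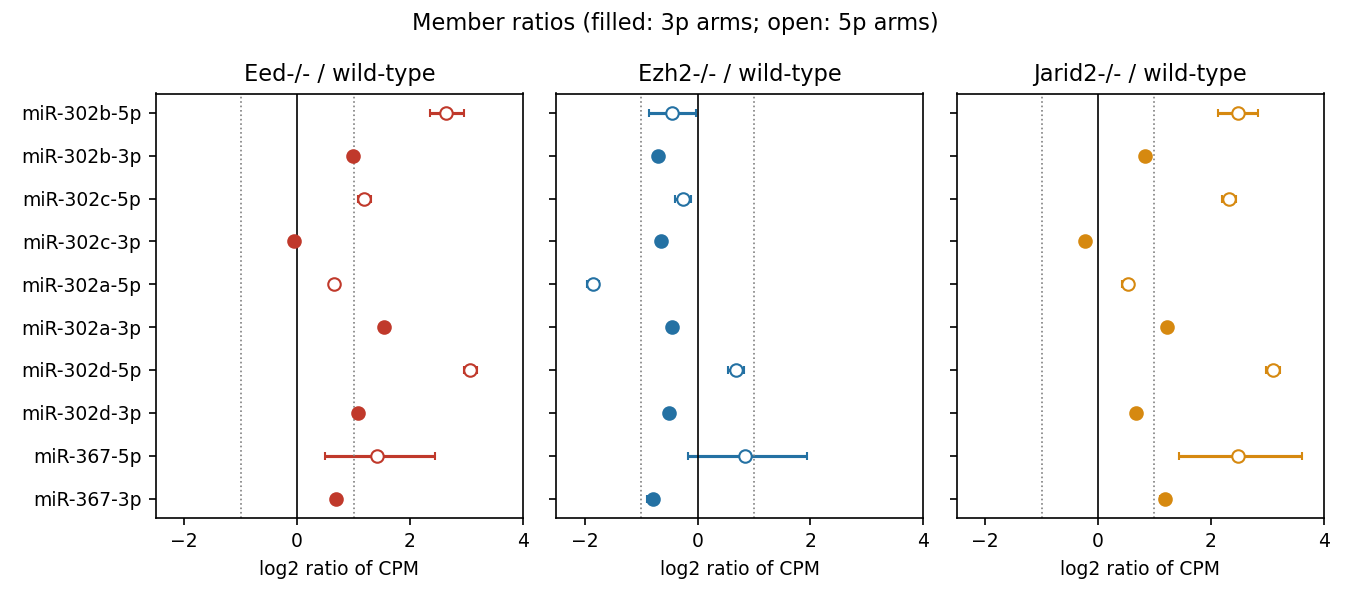
Log2 ratio of CPM, mutant against wild-type with nothing added (x axis), for each member (y axis, in genome order), 1 panel per mutant, with exact conditional 95% intervals and dotted lines at 1 and -1. Filled points are 3p arms and open points 5p arms. The open points of miR-302b and miR-302d lie furthest right in Eed-/- (6.26-fold and 8.38-fold higher), and miR-302a-5p lies furthest left in Ezh2-/- (3.60-fold lower).

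The 5p arms, usually the degraded strand of this family, held both the largest higher and the largest lower ratios among the members. The largest ratio of any member in Eed-/- and Jarid2-/- was that of mmu-miR-302d-5p (chr3:127248547-127248569). It had 635 counts in the wild-type column, 9462 in Eed-/- cells, 1370 in Ezh2-/- and 1943 in Jarid2-/-, or 26.7, 224, 42.7 and 229 CPM. The level was 8.38-fold higher (7.74 to 9.10) in Eed-/- and 8.58-fold higher (7.84 to 9.40) in Jarid2-/-, and it was 1.60-fold higher (1.46 to 1.76) in Ezh2-/-. It was above wild-type in Ezh2-/- under all 5 scalings, with log2 ratios from 0.66 to 1.37.

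For mmu-miR-302b-5p (chr3:127248156-127248178) the counts were 100 in wild-type cells, 1112 in Eed-/- cells, 99 in Ezh2-/- and 198 in Jarid2-/-. Its level of 4.20 CPM in wild-type compared with 26.3 in Eed-/- cells, 6.26-fold higher (5.09 to 7.76), and 23.3 in Jarid2-/-, 5.55-fold higher (4.34 to 7.13). In Ezh2-/- it was 3.09 CPM, 1.36-fold lower (1.02 to 1.82) with total counts. Its log2 ratio there was above 0 with TMM (0.23) and the median-ratio factors (0.06).

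Levels of mmu-miR-302c-5p (chr3:127248286-127248307) were 31.4 CPM in wild-type cells, 71.5 in Eed-/- cells, 26.2 in Ezh2-/- and 157 in Jarid2-/-. It was 4.99-fold higher (4.56 to 5.47) in Jarid2-/- and 2.28-fold higher (2.10 to 2.47) in Eed-/-, although with total counts the 3p arm of the same hairpin was below its wild-type level in both. In Ezh2-/- it was 1.20-fold lower (1.08 to 1.32) with total counts. Its log2 ratio there was above 0 with TMM (0.46), the median-ratio factors (0.25) and the RPM denominators (0.18).

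The most abundant 5p arm of wild-type cells, mmu-miR-302a-5p (chr3:127248419-127248440), was an exception to the large ratios. It had 108 CPM in wild-type cells, 171 in Eed-/- cells, 30.1 in Ezh2-/- and 157 in Jarid2-/-. The level was 1.58-fold higher (1.51 to 1.65) in Eed-/- cells, 1.44-fold higher (1.35 to 1.54) in Jarid2-/-, but 3.60-fold lower (3.34 to 3.88) in Ezh2-/-, where it was the single member called lower. The Ezh2-/- call held under the 5 scalings run, with log2 ratios between -1.81 and -1.10.

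The rarest member, mmu-miR-367-5p (chr3:127248659-127248679), had 12 counts in the wild-type column, 57 in Eed-/- cells, 29 in Ezh2-/- and 24 in Jarid2-/-. Its level of 0.504 CPM (0.261 to 0.881) in wild-type was below those of 1.35 (1.02 to 1.75) in Eed-/- and 2.83 (1.81 to 4.21) in Jarid2-/-, while the interval of the ratio in Ezh2-/-, 1.79-fold (0.887 to 3.86), spans no difference.

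The order of the 5p arms thus differed between columns. In wild-type miR-302a-5p stood above miR-302c-5p, miR-302d-5p and miR-302b-5p, and in each mutant miR-302d-5p was the most abundant 5p arm. MiR-302c-5p and miR-302a-5p did not differ beyond counting error in Jarid2-/-, with 1330 and 1329 counts.

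The share of a hairpin's counts on its 5p arm, a ratio within a column that no scaling changes, differed between hairpins and genotypes. For miR-302d it was 0.700% (0.647 to 0.757%) in wild-type cells, 2.72% (2.67 to 2.78%) in Eed-/- cells, 1.58% (1.50 to 1.67%) in Ezh2-/- and 3.65% (3.49 to 3.81%) in Jarid2-/-. All 3 mutants were above wild-type for this hairpin. For miR-302c the share was 2.61% (2.43 to 2.80%), 5.97% (5.76 to 6.18%), 3.38% (3.16 to 3.61%) and 13.5% (12.8 to 14.2%) in the same order.

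For miR-302b it was 0.251% (0.204 to 0.305%) in wild-type and 0.298% (0.242 to 0.362%) in Ezh2-/-, with overlapping intervals. It was 0.783% (0.738 to 0.831%) in Eed-/- and 0.780% (0.676 to 0.897%) in Jarid2-/-. The miR-302a hairpin went the other way, with 11.2% (10.8 to 11.7%) in wild-type cells, 6.43% (6.29 to 6.58%) in Eed-/- cells, 4.58% (4.30 to 4.87%) in Ezh2-/- and 7.28% (6.91 to 7.67%) in Jarid2-/-. The miR-367 share was 0.566% (0.293 to 0.986%) in wild-type and 1.74% (1.17 to 2.48%) in Ezh2-/-, and the intervals of Eed-/- and Jarid2-/- overlapped that of wild-type.

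Differences in the ratio of 5p to 3p arm were common in these columns. Over 228 hairpins with single-locus arms, at least 100 counts in all and at least 10 per arm in both columns, the log2 difference between Eed-/- and wild-type had a median of 0.05 and quartiles of -0.59 and 1.02. In that comparison miR-302d (1.99) was 28th, miR-302b (1.65) 35th and miR-302c (1.24) 44th from the top, and miR-302a (-0.88) was 189th. MiR-367 (0.73, 74th) lay between the quartiles. In Jarid2-/-, among 175 hairpins with quartiles of -0.64 and 1.30, miR-302c (2.54) was 13th, miR-302d (2.42) 15th, miR-302b (1.64) 31st, miR-367 (1.30) 44th and miR-302a (-0.69) 135th. In Ezh2-/-, among 171 hairpins with quartiles of -0.70 and 0.55, miR-367 (1.63) was 7th, miR-302d (1.19) 18th and miR-302a (-1.40) 154th, while miR-302c (0.38, 57th) and miR-302b (0.25, 74th) lay between the quartiles. Most of the miR-302 differences thus lay outside the central range of the table, but they were not its extremes.

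**Figure D4:**
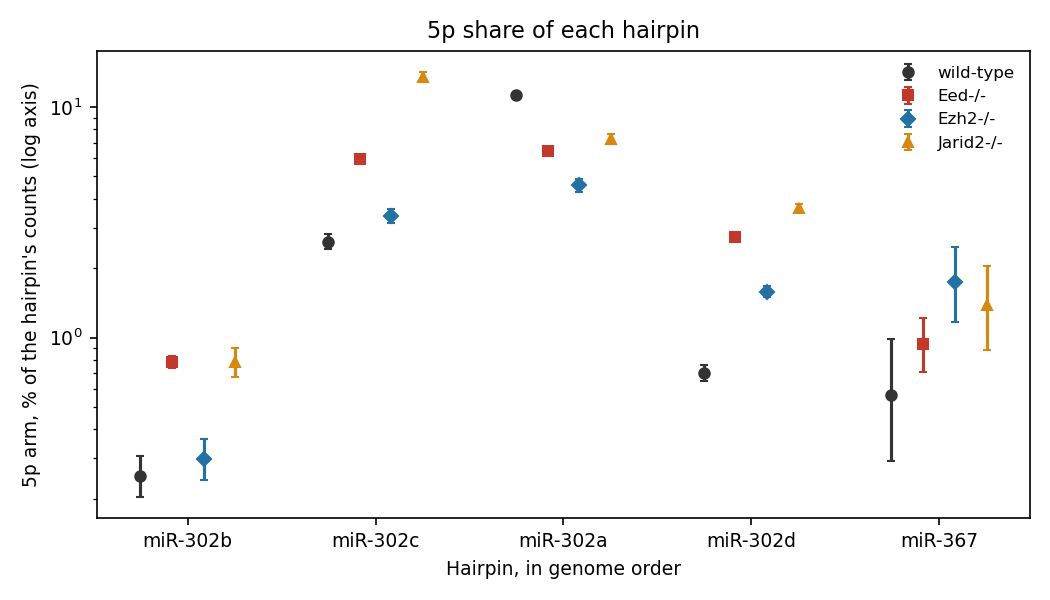
Share of each hairpin's counts on its 5p arm, in percent on a log axis (y axis), for the 5 hairpins in genome order (x axis), 1 point per genotype with exact 95% binomial intervals. The wild-type point is the lowest for miR-302c, miR-302b, miR-302d and miR-367, though its interval overlaps that of a mutant for miR-302b and miR-367, and it is the highest for miR-302a.

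The 5p arms of the miR-290 cluster, the group most like this one, were also higher in Eed-/- and Jarid2-/-. Summed over 9 loci they were 1.61-fold higher (1.60 to 1.61) in Eed-/- and 1.62-fold higher (1.62 to 1.63) in Jarid2-/-, and 1.10-fold higher in Ezh2-/-. Summed over the 5 hairpins here, 5p arms were 2.89-fold higher (2.79 to 2.98) in Eed-/- and 3.32-fold higher (3.18 to 3.46) in Jarid2-/-, whereas Ezh2-/- was 1.66-fold lower (1.59 to 1.74). The Ezh2-/- log2 ratio of -0.73 shrank to -0.22 with the median-ratio factors and -0.0039 with TMM. The 3p arms of the miR-290 cluster were 1.04-fold higher in Eed-/- and 1.17-fold lower in Jarid2-/-, where the 3p arms of this cluster were 1.99-fold (1.98 to 2.00) and 1.61-fold (1.60 to 1.63) higher. The 12 loci of the miR-17-92 cluster, an abundant growth-linked group, summed to 1.04-fold lower in Eed-/- cells, 1.09-fold higher in Jarid2-/- and 1.44-fold higher in Ezh2-/-. The sign of the miR-290 3p sum turned with TMM and the median-ratio factors in Eed-/- (log2 ratios of -0.07 and -0.17) and with the RPM denominators in Jarid2-/- (0.27). That of the miR-17-92 sum turned with the RPM denominators in Eed-/- (0.65) and with totals outside the miR-290 and Gtl2-Rian-Mirg clusters in Jarid2-/- (-0.028). With 1 column per genotype, these differences between clusters were not tested.

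The seed AAGUGCU of miR-302a-3p, miR-302b-3p and miR-302d-3p is carried by 3 microRNAs outside the cluster, all from the miR-290 cluster. They are shown to place the cluster within its seed group.

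miR-291a-3p: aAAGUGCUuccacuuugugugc
miR-294-3p: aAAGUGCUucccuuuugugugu
miR-295-3p: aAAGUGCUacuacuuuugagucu

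The whole seed group of 6 microRNAs amounted to 185925 CPM in wild-type cells, 151209 in Eed-/- cells, 197798 in Ezh2-/- and 189829 in Jarid2-/-, and miR-294-3p alone held between 76.3% (Eed-/-) and 83.3% (Ezh2-/-) of it. The cluster members contributed 3.39% (3.38 to 3.41%) in wild-type cells, 9.13% (9.11 to 9.16%) in Eed-/- cells, 2.18% (2.17 to 2.19%) in Ezh2-/- and 5.80% (5.76 to 5.84%) in Jarid2-/-. In Eed-/- miR-302d-3p, at 7988 CPM, was close to miR-291a-3p, at 7892 CPM, whereas in wild-type the values were 3784 and 10213 CPM.

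Outside the cluster, 0 of the 3 seed relatives were called in any mutant with total counts. The shares of all tested loci called higher were 17.5% (Eed-/-), 4.9% (Ezh2-/-) and 16.3% (Jarid2-/-). Those called lower were 15%, 24.5% and 22.8% in the same order. With TMM 1 relative, miR-295-3p, was called higher in Ezh2-/-, as were 145 of 1000 tested loci there. The summed level of the 3 relatives was 1.31-fold lower in Eed-/- cells, 1.08-fold higher in Ezh2-/- and within 1.00-fold of wild-type in Jarid2-/-. The log2 ratio of the sum went from -0.39 to 0.33 in Eed-/- and from -0.0064 to 0.49 in Jarid2-/- with the RPM denominators, and from 0.11 to 0.84 in Ezh2-/- with TMM. In Eed-/-, miR-294-3p was 1.32-fold lower and miR-291a-3p 1.29-fold lower, opposite in sign to miR-302a-3p, miR-302b-3p and miR-302d-3p, except with the RPM denominators, where their log2 ratios were 0.31 and 0.34.

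In the miR-17 family, 6 relatives carry the core AAGUGC shifted by 1 place. Of these, 2 were called higher in Eed-/- (miR-20a-5p, 2.47-fold, and miR-93-5p, 30.1-fold) and 1 in Ezh2-/- (miR-20a-5p, 3.75-fold). In Jarid2-/- 4 were called higher, from 2.32-fold (miR-106a-5p) to 3.81-fold (miR-20a-5p), and 0 were called lower in any mutant. Over all tested loci 17.5% (Eed-/-), 4.9% (Ezh2-/-) and 16.3% (Jarid2-/-) were called higher. In Ezh2-/- miR-17-5p was called higher as well with TMM, the median-ratio factors and the RPM denominators. Of 1000 tested loci, 145, 111 and 101 were called higher there under these scalings. The relatives summed to 37130 CPM in wild-type, 1.19-fold higher in Eed-/- (44124 CPM), 1.49-fold higher in Ezh2-/- (55252 CPM) and 2.06-fold higher in Jarid2-/- (76649 CPM). With TMM the log2 ratio of the sum was 1.30 in Ezh2-/- and 1.02 in Jarid2-/-, so the order of these mutants depended on the scaling.

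The seed AUUGCAC of miR-367-3p is shared with 5 microRNAs of the miR-25 and miR-92 family, of which 3 are shown: miR-92a-3p and miR-25-3p, the most abundant, and miR-363-3p, which was called lower in Ezh2-/-.

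miR-92a-3p: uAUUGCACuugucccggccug
miR-25-3p: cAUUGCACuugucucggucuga
miR-363-3p: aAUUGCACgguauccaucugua

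In this group miR-367-3p was a small part, with 0.281% (0.269 to 0.293%) of the counts in the wild-type column, 0.752% (0.734 to 0.771%) in Eed-/- cells, 0.188% (0.179 to 0.197%) in Ezh2-/- and 0.495% (0.471 to 0.518%) in Jarid2-/-. MiR-92a-3p, counted as 1 value for its 2 loci, held between 77.1% and 88.1% of the group. Of the 5 relatives, 0 were called higher in any mutant with total counts and 1, miR-363-3p in Ezh2-/-, was called lower, at 4.48-fold (4.36 to 4.60), where 24.5% of all tested loci were called lower. All tested loci were called higher at 17.5% (Eed-/-), 4.9% (Ezh2-/-) and 16.3% (Jarid2-/-), and lower at 15% in Eed-/- and 22.8% in Jarid2-/-. The miR-363-3p call in Ezh2-/- held under the 5 scalings run, where 163 to 245 of 1000 loci were called lower, but other calls were added. In Eed-/- miR-32-5p and miR-363-3p were called lower with TMM and the median-ratio factors, where 183 and 196 of 1096 loci were called lower. In Jarid2-/- miR-25-3p was called lower with the median-ratio factors and with totals outside the miR-290 and Gtl2-Rian-Mirg clusters. Of 950 tested loci, 235 and 238 were called lower there. With the RPM denominators miR-92a-3p and miR-92b-3p were called higher in Jarid2-/-, as were 259 of the 950 loci. In Eed-/- the relatives summed to 1.67-fold lower, with each of the 5 below wild-type, while miR-367-3p was 1.61-fold higher. The log2 ratio of that sum, -0.74 with total counts, was -0.031 with the RPM denominators, and miR-92b-3p (0.47) and miR-25-3p (0.03) had log2 ratios above 0 there.

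**Figure D5:**
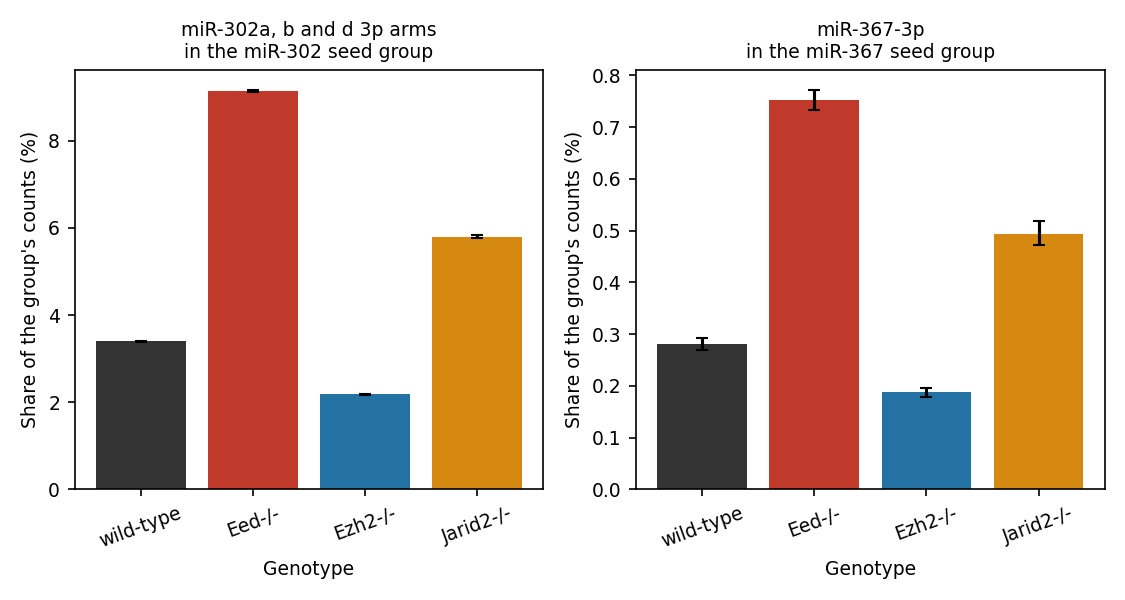
Share of counts within 2 seed groups (y axis, percent, from 0) in the 4 genotypes (x axis), with exact 95% binomial intervals. Left, miR-302a-3p, miR-302b-3p and miR-302d-3p among the 6 microRNAs with their seed, from 2.18% in Ezh2-/- to 9.13% in Eed-/-. Right, miR-367-3p among the 6 microRNAs with its seed, from 0.188% to 0.752%.

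The microRNAs with the course most like that of the cluster were sought by distance over the 3 log2 ratios to wild-type, among 337 names with at least 100 counts in each of the 4 columns. The cluster sum stood at 1.01 (Eed-/-), -0.57 (Ezh2-/-) and 0.72 (Jarid2-/-). The nearest was miR-362-5p, with log2 ratios of 0.91, -0.60 and 0.43 and a distance of 0.31. It was followed by miR-296-5p (0.32), miR-20a-3p (0.33), miR-138-5p (0.40) and miR-297c-3p (0.43). All 5 were far less abundant than the cluster, at 63.9 to 211 CPM in wild-type. The ratios share the wild-type column, so likeness over them rests on 4 values per microRNA.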

How the data were processed

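Small RNA of 18 to 40 nt was gel-selected and sequenced on a SOLiD instrument, per the labels' protocols. Tools given in the submitters' processing notes are cutadapt and Bowtie, with versions not given in the sources used here, and the build is mm9. Pooling of samples and the handling of reads with several matches are likewise not given. The deposited tables give, per the file headers, read counts per mature microRNA locus of miRBase release 20 and the same values as RPM, which the authors scaled to 62259756 to 267248746 reads per column. Columns were matched to genotypes by name. The Eed-/- column is headed HEED, which holds Eed, and the Jarid2-/- column JUMONJI, the older name of Jarid2. The wild-type header names the undifferentiated parental line and no mutant gene. The members and lists were chosen with earlier results of these data known.

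CPM used column totals, and fold intervals were exact conditional binomial (scipy 1.17.1). Log2 ratios of members in the text, calls, medians over loci and the nearest courses added 1 CPM. Those of other sums, of single seed relatives and of 5p to 3p ratios added nothing. A count of 0 entered sums and ratios as 0, and should be read as at most 3 counts (0.0709 to 0.354 CPM). The planned edgeR test could not be run with 1 column per genotype. The call rule was tested on simulated data. Alternatives were TMM (edgeR 4.0.16), median-ratio factors (DESeq2 1.42.0), RPM denominators, totals without the miR-290 and Gtl2-Rian-Mirg clusters, pseudocounts of 0.1 and 10, count filters of 1 and 100, 1 value per name, and, added after seeing the data, sums without miR-302d-3p. Named were all 10 members, their seed relatives and the 5 nearest courses. RefSeq sequences matched 1662 of 2035 loci by name. The chromatin and messenger RNA samples were not analysed here.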

Additional observations from a re-analysis of the deposited data

How the results depend on the processing

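The log2 ratios of the cluster sum were 1.01 in Eed-/-, -0.57 in Ezh2-/- and 0.72 in Jarid2-/- against wild-type, 1.58 for Eed-/- against Ezh2-/-, 0.28 for Eed-/- against Jarid2-/- and -1.29 for Ezh2-/- against Jarid2-/-. In that order they were 0.88, 0.16, 0.70, 0.72, 0.19 and -0.54 with TMM. With median-ratio factors they were 0.79, -0.051, 0.60, 0.84, 0.18 and -0.65. With the RPM denominators they were 1.72, -0.12, 1.22, 1.84, 0.50 and -1.34. With totals outside the miR-290 and Gtl2-Rian-Mirg clusters they were 1.02, -0.53, 0.57, 1.56, 0.45 and -1.10. Without miR-302d-3p, a setting chosen after seeing the data, they were 0.94, -0.63, 0.77, 1.56, 0.17 and -1.39. The sign changed in 1 case, Ezh2-/- against wild-type with TMM. Counts of called loci were 356 in Eed-/-, 294 in Ezh2-/- and 372 in Jarid2-/-, and were 218, 186 and 240 with a pseudocount of 10 CPM. All other settings kept these counts within 1.5 times. The split of Ezh2-/- calls moved from 49 higher and 245 lower to 145 and 163 with TMM, 111 and 189 with median-ratio factors and 101 and 194 with the RPM denominators. In Eed-/- the split of 192 and 164 became 131 and 196 with median-ratio factors and 369 and 110 with the RPM denominators, and in Jarid2-/- that of 155 and 217 became 259 and 184 with the latter. Members called higher ranged from 3 to 9 of 10 in Eed-/-, from 0 to 1 in Ezh2-/- and from 5 to 9 in Jarid2-/-, and no called member changed sign. Of the 10 members, 6 changed sign in Ezh2-/- with TMM and 4 with median-ratio factors. No paired analysis was possible because each genotype has 1 column, and for the same reason the DESeq2 test was not run and no replicate could be left out. Depth limits miR-367-5p, with 12 to 57 counts, more than any other member.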
